A study of Mus musculus with 12 samples.

Results

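Crypt stem cell and Wnt target genes were followed in colonic epithelial cells of mice with and without epithelial Tfeb, before and after injury with dextran sulfate sodium (DSS). The 10 genes, chosen by symbol out of 47632 in each deposited table, were the stem cell genes Lgr5, Ascl2, Smoc2 and Lrig1, the Wnt feedback and target genes Axin2, Sox9, Myc and Cd44, and the Eph receptors Ephb2 and Ephb3. All 10 had 1 row in each of the 3 tables. On Day 4 of DSS, Smoc2 and Cd44 stood more than 2-fold below their untreated level in both genotypes. Of all genes that passed a filter on low values, 25.7% did so in controls and 15.6% in animals without epithelial Tfeb. On the same day, Sox9 and Lrig1 stood more than 2-fold lower in animals without epithelial Tfeb than in controls, as did 26.1% of all filtered genes. The lower Lrig1 value rested on about 4 to 6 sequenced fragments. Lgr5 was close to its detection limit in both genotypes.

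The colonic epithelium is renewed from stem cells at the base of the crypts. Wnt ligands, together with R-spondins that bind the LGR receptors, stabilise β-catenin there, which joins TCF factors and turns on target genes, among them genes for stem cell identity, for proliferation and for feedback inhibition of the pathway itself. Cells leaving the crypt base lose the Wnt signal, and their position along the crypt axis is kept by EphB receptors and their ephrin ligands. DSS in the drinking water damages the colonic epithelium, and the crypts then have to replace the lost cells.

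Mice of strain C57/BL6 carried floxed Tfeb alleles, either alone (Tfeb flox/flox, labelled WT) or with Cre recombinase under the villin promoter, which deletes Tfeb in the intestinal epithelium (Tfeb dIEC, labelled KO). Animals were untreated (Day 0), taken at the end of DSS administration (Day 4) or after recovery (Day 11), with 2 animals per genotype and day and 12 in all. The labels give 2.5% DSS as the treatment, while the study's methods state a lower concentration, and they tag the first group as DSS on day 0, which the study treats as the state before DSS. The Day 0 animals were 10 and 12 weeks old, those of Day 4 were 12 weeks and those of Day 11 were 10 weeks, in both genotypes, so age and day cannot be fully told apart. Epithelial cells were released from the colon with EDTA, and full-length cDNA (SmartSeq2) was sequenced as read pairs. Each table gave 1 pooled FPKM (fragments per kilobase, a level corrected for transcript length and sequencing depth) per genotype, made by the authors from both animals. The values carry no error between animals. The authors' own test columns in these tables were not used, and no other test could be made from pooled values, so the comparisons are descriptions. In such bulk samples, fewer cells of a type and less RNA per cell cannot be told apart.

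Several facts of the whole series touch every value. The tables of Days 4 and 11 were nearly the same: 14.3% of the values above 0 in both tables were identical in Tfeb flox/flox and 10.2% in Tfeb dIEC, against 0 identical values between Days 0 and 4. Day 11 is therefore given beside Day 4 and not counted as separate support. Tfeb, the targeted gene, was at 0.901 FPKM in Tfeb flox/flox and 0.185 in Tfeb dIEC on Day 0, at 1.08 and 0 on Day 4, and at 1.18 and 0 on Day 11. All 8 epithelial markers were above 0 in all 6 groups, with a summed FPKM from 5620 to 10373. The 11 immune markers summed to between 3.06 and 9.67 FPKM and the 11 stromal markers to between 2.57 and 5.48, with Col1a2, Pdgfra and Des at 0 throughout. On Day 4 the values of all genes summed to 1464717 in Tfeb flox/flox and 820344 in Tfeb dIEC, against 975316 and 973878 on Day 0.

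Of the 10 genes, 6 had a promoter in the RefSeq-based table (GRCm38.p6, the same assembly as mm10), which holds 250 bases before and 50 after each start site. None of the 6 held the TCF/LEF heptamers CTTTGAT or CTTTGTT or the E-box CACGTG on either strand, letters found in 3.73%, 5.85% and 7.15% of all 32851 promoters of that length. Such a search says only that these letters are not in these windows. The promoters of Ascl2, Lrig1, Axin2, Ephb2 and Ephb3 were rich in the dinucleotide CG, with 23 to 35 copies each, against a median of 7 over all promoters, and 21.5% of all promoters held 23 or more. The promoter of Cd44 had 6. The 250 bases before the start site are shown for Axin2 and Ascl2, as examples of the CG-rich kind, and for Cd44, with each CG in capitals and the sequence read 5′ to 3′ on the strand of the gene.
Axin2, chr11:108920099-108920348, plus strand: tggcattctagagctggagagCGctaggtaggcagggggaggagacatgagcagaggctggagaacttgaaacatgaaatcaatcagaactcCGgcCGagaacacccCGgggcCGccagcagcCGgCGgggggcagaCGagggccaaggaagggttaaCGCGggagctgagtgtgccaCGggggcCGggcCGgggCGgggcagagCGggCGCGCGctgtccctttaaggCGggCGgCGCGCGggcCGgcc
Ascl2, chr7:142969265-142969514, minus strand: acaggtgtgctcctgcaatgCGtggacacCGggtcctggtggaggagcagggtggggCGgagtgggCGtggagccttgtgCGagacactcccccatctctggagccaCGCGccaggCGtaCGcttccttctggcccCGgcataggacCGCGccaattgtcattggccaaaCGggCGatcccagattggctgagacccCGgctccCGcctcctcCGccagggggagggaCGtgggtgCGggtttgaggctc
Cd44, chr2:102901666-102901915, minus strand: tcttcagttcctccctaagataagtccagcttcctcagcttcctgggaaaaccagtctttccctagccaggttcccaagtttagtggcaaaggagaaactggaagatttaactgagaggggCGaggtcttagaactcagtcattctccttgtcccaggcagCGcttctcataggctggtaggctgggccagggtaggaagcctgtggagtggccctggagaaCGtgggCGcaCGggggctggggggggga
In these stretches the capitals mark 24 CG in Axin2, 19 in Ascl2 and 5 in Cd44.

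The stem cell genes were all detected in the untreated colon, at 1.3 to 9.01 FPKM. Lgr5, the R-spondin receptor that marks crypt base stem cells (ENSMUSG00000020140.15, chromosome 10 from 115450311 to 115587780 in mm10), was at 1.99 FPKM in Tfeb flox/flox and 1.3 in Tfeb dIEC on Day 0. On Day 4 it was at 0.125 and 0.21, and on Day 11 at 0.119 and 0.219. The later values lay under the level of 3 fragments in both genotypes, so how far Lgr5 was below Day 0 cannot be read. The difference between genotypes on the log2(FPKM + 1) scale, Tfeb dIEC against Tfeb flox/flox, was -0.38 on Day 0 and 0.10 on Day 4, and this scale understates changes of genes with such low values.

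Ascl2, a Wnt-driven transcription factor required for stem cell fate (ENSMUSG00000009248.6, chromosome 7 from 142966829 to 142969264), was at 2.99 FPKM in Tfeb flox/flox and 1.66 in Tfeb dIEC on Day 0. It was at 0.94 and 0.468 on Day 4 and at 1.2 and 1.03 on Day 11. On Day 0 the level was 1.8-fold lower in Tfeb dIEC, and the log2 difference of -0.58 did not reach the limit of 2-fold on the log2(FPKM + 1) scale. The values of Days 4 and 11 lay under the level of 3 sequenced fragments in their group, estimated at 1.05 to 1.77 FPKM, so the order of the genotypes on these days cannot be read. In Tfeb dIEC, Ascl2 was the gene whose values on Days 4 and 11 differed most among the 10, by 2.19-fold, which at this depth cannot be read as a change.

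Smoc2, a secreted matricellular protein found in the stem cell signature (ENSMUSG00000023886.9, chromosome 17 from 14279506 to 14404790), had the highest level of the 10 in Tfeb dIEC on Day 0. It was at 6.14 FPKM in Tfeb flox/flox and 9.01 in Tfeb dIEC on Day 0, at 1.08 and 0.801 on Day 4, and at 0.962 and 0.723 on Day 11. The log2 differences of 0.49 on Day 0 and -0.21 on Day 4 lay within 2-fold. The direction on Day 4 turned to 0.19 when each genotype was divided by its summed FPKM, and these values rested on about 5 to 6 fragments in Tfeb flox/flox and 6 to 8 in Tfeb dIEC.

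Lrig1, a transmembrane inhibitor of ErbB receptors that also marks stem and progenitor cells (ENSMUSG00000030029.14, chromosome 6 from 94500331 to 94700158), behaved differently. Tfeb flox/flox had 1.75 FPKM and Tfeb dIEC 4.66 on Day 0, then 2.63 and 0.315 on Day 4, and 2.64 and 0.327 on Day 11. It was thus the higher of the pair in Tfeb dIEC before DSS, by 2.66-fold, and the lower after DSS, by 8.35-fold on Day 4. The log2 differences were 1.04 on Day 0 and -1.47 on Day 4. The value of Day 0 lay just past the limit and fell under it, to 0.98, once the median difference of all genes was subtracted, whereas the value of Day 4 stayed past it with that subtraction, at -1.52, and with each genotype divided by its summed FPKM, at -1.01. Exons of Lrig1 share 144 bases with the opposite-strand gene Slc25a26, whose FPKM was at most 0.435.

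**Figure D1:**
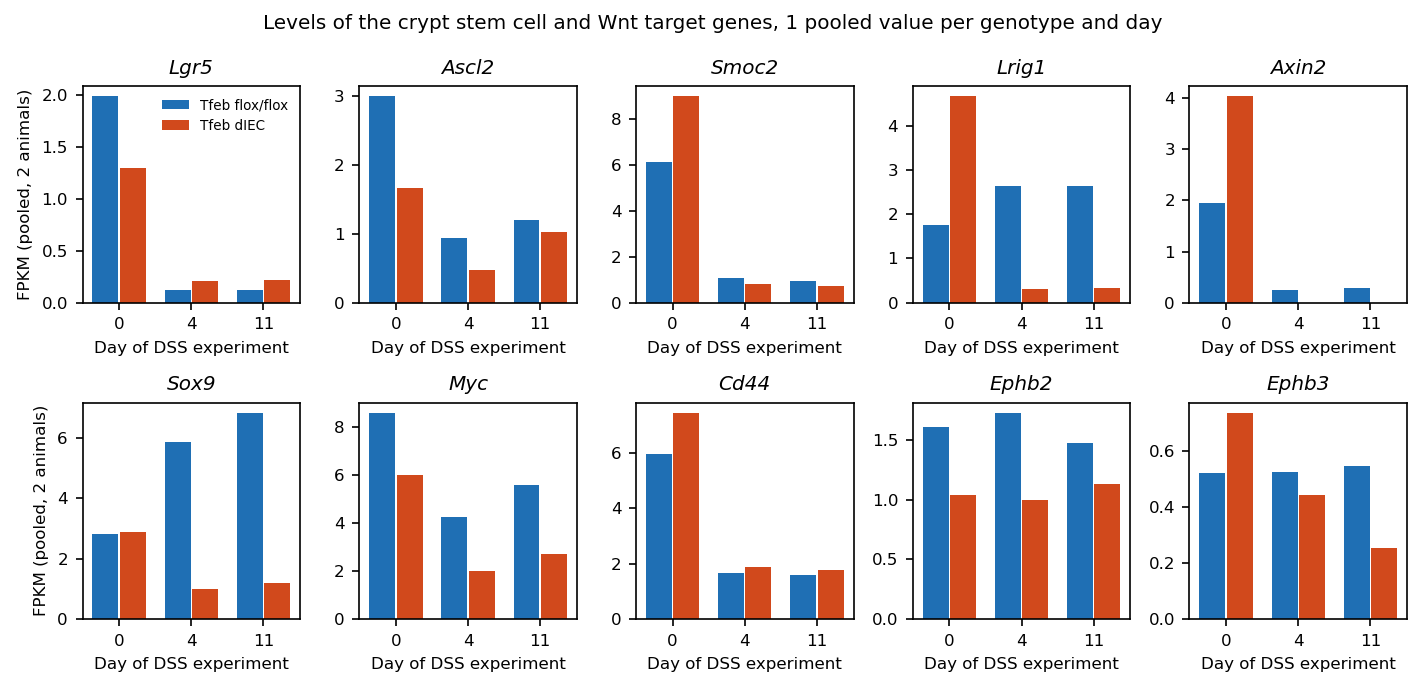
FPKM of the 10 genes (vertical axes, scaled per gene and starting at 0) on Days 0, 4 and 11 in Tfeb flox/flox and Tfeb dIEC animals. Each bar is 1 pooled value from 2 animals without an error. Lgr5, Ascl2, Smoc2, Axin2, Myc and Cd44 were lower after Day 0 in both genotypes, with the later values of Lgr5, Ascl2 and Axin2 under the level of 3 fragments. Sox9, Lrig1 and, at levels under 1 FPKM, Ephb3 were lower in Tfeb dIEC and not in Tfeb flox/flox.

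Among the Wnt targets, Axin2 and Sox9 took different courses. Axin2, a scaffold of the β-catenin destruction complex and a feedback inhibitor turned on by Wnt signalling itself (ENSMUSG00000000142.15, chromosome 11 from 108920349 to 108950783), was at 1.95 FPKM in Tfeb flox/flox and 4.04 in Tfeb dIEC on Day 0. It was at 0.242 in Tfeb flox/flox and listed at 0 in Tfeb dIEC on Day 4, and at 0.293 and 0 on Day 11. The higher Day 0 level in Tfeb dIEC, by 2.07-fold, gave a log2 difference of 0.77. On Day 4 no difference could be read: the value of 3 fragments in Tfeb dIEC, the level under which a gene may go unseen, was about 0.321 FPKM, above the value measured in Tfeb flox/flox. The antisense gene Gm11670 shares 209 exon bases with Axin2 and was at 0 in all 6 groups.

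Sox9, a transcription factor of crypt progenitors and stem cells (ENSMUSG00000000567.5, chromosome 11 from 112782224 to 112787760), was nearly equal in both genotypes on Day 0, at 2.81 FPKM in Tfeb flox/flox and 2.9 in Tfeb dIEC. On Day 4 it was at 5.85 and 1, and on Day 11 at 6.83 and 1.18. The Day 4 value in Tfeb flox/flox was the highest of the 10 genes in that group. The log2 difference was -1.77 on Day 4 and -1.84 on Day 11, the largest of the 10 on this scale, and the levels were 5.83-fold and 5.79-fold lower in Tfeb dIEC, a smaller ratio than that of Lrig1. With each genotype divided by the sum of its values, the log2 difference on Day 4 was -1.17.

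Myc, which drives growth and proliferation downstream of Wnt (ENSMUSG00000022346.14, chromosome 15 from 61985341 to 61990374), was lower in Tfeb dIEC on each day. It was at 8.6 FPKM in Tfeb flox/flox and 5.99 in Tfeb dIEC on Day 0, at 4.25 and 2 on Day 4, and at 5.6 and 2.73 on Day 11. The log2 differences were -0.46 on Day 0, -0.81 on Day 4 and -0.82 on Day 11, all within 2-fold on that scale. That of Day 4 was -0.18 with each genotype divided by the sum of its values.

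Cd44, a hyaluronan receptor of proliferating crypt cells (ENSMUSG00000005087.17, chromosome 2 from 102811141 to 102901665), was at 5.96 FPKM in Tfeb flox/flox and 7.44 in Tfeb dIEC on Day 0. On Day 4 it was at 1.68 and 1.89, and on Day 11 at 1.6 and 1.76. The genotypes were within 1.25-fold of each other on each day, and the levels after DSS were lower in both. The log2 difference of 0.11 on Day 4 depended on the scaling. It was 0.62 with each genotype divided by the sum of its values. With the median of genes of like transcript length subtracted, it was -0.53.

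The Eph receptors were at low levels on each day. Ephb2, the receptor whose level is highest at the crypt base (ENSMUSG00000028664.14, chromosome 4 from 136647539 to 136835988), was at 1.61 FPKM in Tfeb flox/flox and 1.04 in Tfeb dIEC on Day 0, at 1.73 and 1 on Day 4, and at 1.48 and 1.13 on Day 11. Tfeb dIEC had the lower value by at most 1.73-fold, and with each genotype divided by its summed FPKM the log2 difference was above equality on Day 4, at 0.03, and on Day 11, at 0.24. Ephb3, another receptor of this family (ENSMUSG00000005958.14, chromosome 16 from 21204755 to 21223305), stayed under 1 FPKM in every group, at 0.521 and 0.737 on Day 0, at 0.527 and 0.444 on Day 4, and at 0.547 and 0.255 on Day 11. It did not pass the filter on low values on any day, so no count of genes past 2-fold includes it.

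Counted over the list, genotype differences past 2-fold were few on each day. On Day 0, 9 of the 10 genes reached 1 FPKM in one genotype or both. Among them 1, Lrig1, was at least 2-fold higher in Tfeb dIEC, beside 13.5% of all 9993 genes that passed this filter, and 0 were at least 2-fold lower, beside 16.1% of all. The median log2 difference of the 9 genes was 0.04, and that of all genes was 0.06.

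On Day 4, 6 of the 10 genes passed the filter, since Lgr5, Ascl2, Axin2 and Ephb3 were under 1 FPKM in both genotypes. None of the 6 was at least 2-fold higher, beside 25.6% of all 9371 genes, and 2, Sox9 and Lrig1, were lower, beside 26.1% of all. A share of 2 in 6 is near this background and is no result about the list. The median log2 difference of the 6 genes was -0.63, against 0.06 for all genes. Of the 7 genes at or above the level of 3 fragments in both genotypes, which leaves out Lgr5, Ascl2 and Axin2, 6 were below equality. Cd44 was above it. Of all filtered genes, 48.7% were below, but that set was chosen by the limit of 1 FPKM, which leaves out Ephb3. The 2 shares are thus not on the same footing. When each genotype was divided by its summed FPKM, Smoc2, Ephb2 and Ephb3 also lay above equality, and Sox9, Lrig1 and Myc remained below. This scaling moved the median of all genes on Day 4 from 0.06 to 0.66 and the share of higher genes among all those past 2-fold from 49.6% to 72.7%. The median of the 6 genes was then -0.08. Such a division moves these genes and all others by nearly the same amount, so it cannot test their order. Of the 6, Smoc2 and Lrig1 passed the filter through Tfeb flox/flox alone. Without the filter and this division, the median of all 10 genes was -0.36. With a pseudocount of 5 FPKM, 0 of the 10 were past 2-fold on this day.

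On Day 11, 6 genes passed the filter again, with Ascl2 in place of Smoc2. At least 2-fold higher were 0, beside 26.1% of all genes, and lower were again Sox9 and Lrig1, beside 25.7% of all. The median log2 difference of the filtered genes was -0.52, against 0.08 for all. These values come from the table that nearly repeats Day 4.

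**Figure D2:**
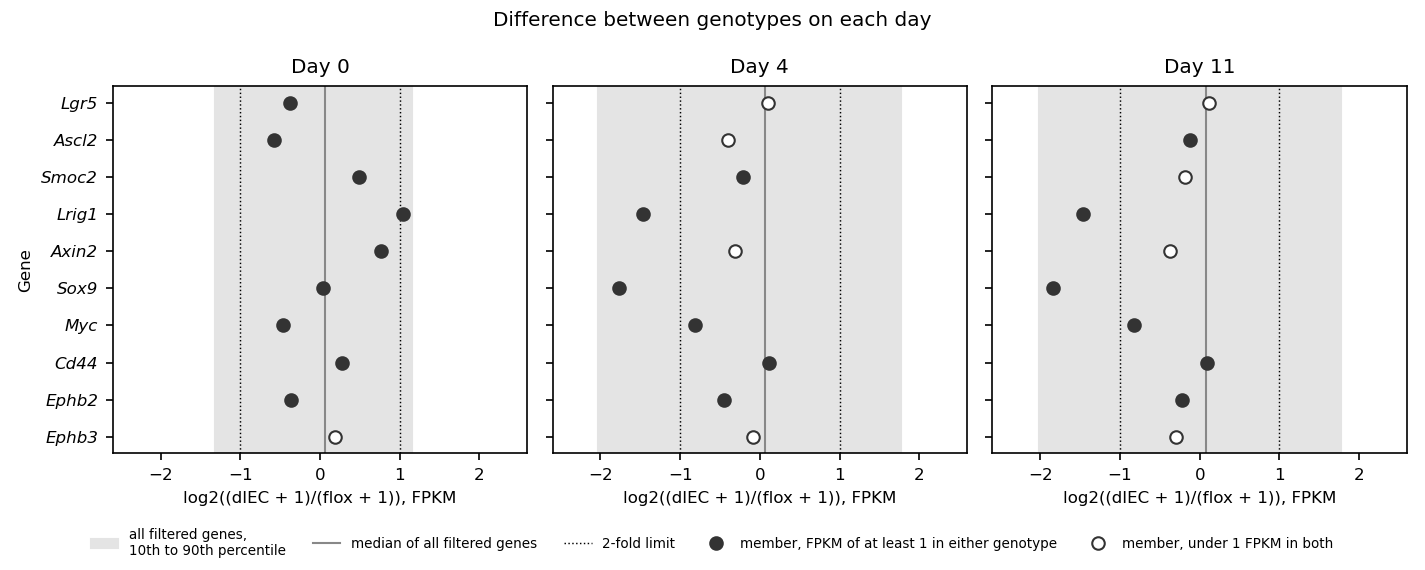
Log2 difference between Tfeb dIEC and Tfeb flox/flox (horizontal axis, pseudocount of 1 FPKM) for each gene on each day. Filled points are genes that reached 1 FPKM in one genotype or both, the grey band spans the range of all such genes from the 10th to the 90th percentile, and dotted lines mark 2-fold. Sox9 at -1.77 and Lrig1 at -1.47 are past the lower line on Day 4 and lie within the grey band.

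Long and short transcripts differed in their typical genotype difference, and most of the 10 genes have long transcripts. Sox9 has a transcript of 4135 nt and Lrig1 a median of 4891 nt over its transcripts. All genes were ranked by transcript length and cut into 10 groups of equal number. Genes in the same length group had a median log2 difference of 0.61 on Day 4 for Sox9 and 0.37 for Lrig1. Against these, Sox9 was at -2.38 and Lrig1 at -1.84. With the median of the length group subtracted, which by construction places the middle of each group at equality, the 6 filtered genes had a median of -0.92 on Day 4 and the 9 of Day 0 a median of -0.38. All 10 genes then lay below equality on Day 4, with Cd44 at -0.53, and with Lgr5, Ascl2 and Axin2 at values under 3 fragments. The part of transcript length in the results was not tested further.

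Low levels mean that few sequenced fragments stand behind the values. Low FPKM values multiplied by transcript length gathered on steps, with 37.5% (Tfeb dIEC, Day 11) to 80.1% (Tfeb flox/flox, Day 4) of the low single-transcript genes near a step. The steps were found in these same values, which raises this share by construction. No share to be had without steps was computed, so it is no test of them. The steps gave a rough value of 1 fragment in each group, between 0.25 and 0.567 FPKM per kilobase of usable transcript length. From these steps and the range of annotated transcript lengths, Lgr5 rested on about 12 to 22 fragments in Tfeb flox/flox and 8 to 16 in Tfeb dIEC on Day 0. On Day 4 it rested on about 1 and on 1 to 4, so its order between the genotypes cannot be read at this depth. Lrig1 rested on about 20 fragments in Tfeb flox/flox and 56 to 60 in Tfeb dIEC on Day 0, and on 22 to 27 and 4 to 6 on Day 4. Sox9, which has a single transcript, rested on about 27 and 29 to 31 fragments on Day 0 and on 41 to 50 and 12 to 15 on Day 4. Both were thus measured with at least 20 fragments in the genotype where they were high. On Day 4, 5 of the 10 genes in Tfeb flox/flox and 6 in Tfeb dIEC rested on fewer than 10 fragments even at the upper estimate. Fragments amplified from cDNA are not independent molecules, and these numbers cover counting only, not the difference between animals.

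**Figure D3:**
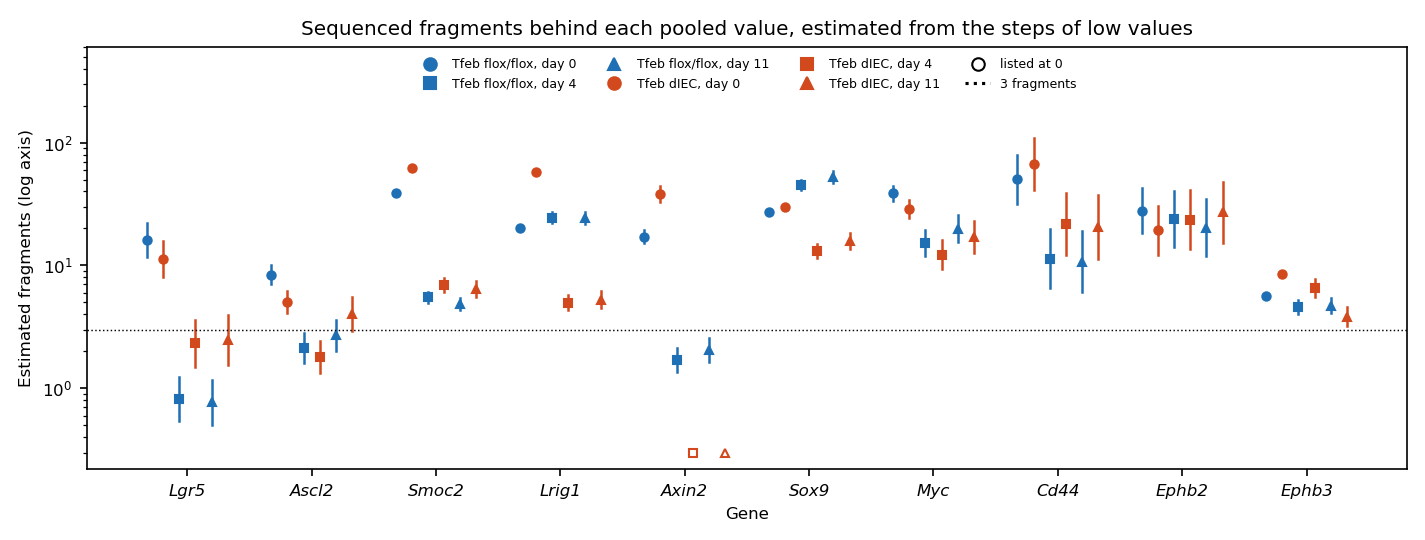
Estimated number of sequenced fragments behind each pooled value (vertical log axis), with lines from the lower to the upper estimate and open symbols for values listed at 0. The dotted line marks 3 fragments. On Day 4, Lgr5 in Tfeb flox/flox and Ascl2 and Axin2 in both genotypes lie below it.

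The levels of Day 4 were then set beside those of Day 0. The tables of the days were normalized separately, so these levels are set side by side only. In Tfeb flox/flox, 5 of 9 filtered genes, Lgr5, Ascl2, Smoc2, Axin2 and Cd44, were at least 2-fold lower on Day 4, beside 25.7% of all genes, and 0 were higher, beside 17.5%. The ratio of Day 0 to Day 4 was 5.7 for Smoc2 and 3.55 for Cd44. No ratio is given for Lgr5, Axin2 and Ascl2, whose Day 4 values lay under the level of 3 fragments and which passed the filter through Day 0 alone. With these values raised to that level, an alternative chosen after the data were seen, the log2 differences were -0.82 for Lgr5, -0.95 for Axin2 and -0.54 for Ascl2. The count was then 2 of 9, Smoc2 and Cd44, and the median over the 9 genes -0.82, and no share of all genes was computed in this way. Sox9, Lrig1, Ephb2 and Ephb3 were not lower in this genotype, with log2 differences from 0.01 for Ephb3 to 0.85 for Sox9, so that 6 of the 10 genes were below Day 0, and 8 when each group was divided by its sum. Of all filtered genes, 56.1% were below Day 0. With the values as deposited, the median over the 9 genes was -1.04, against -0.20 for all genes.

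In Tfeb dIEC, 5 of 9 filtered genes, Smoc2, Lrig1, Axin2, Myc and Cd44, were at least 2-fold lower on Day 4, beside 15.6% of all genes, and 0 were higher, beside 9.26%. Of these, Smoc2, Lrig1 and Axin2 passed the filter through Day 0 alone, where they were high, so their count is a description and no support for a change of the list. The ratio of Day 0 to Day 4 was 14.8 for Lrig1, 11.3 for Smoc2, 3.93 for Cd44 and 3 for Myc, and none is given for Lgr5, Axin2 and Ascl2 for the same reason. All 10 genes were below their Day 0 level, 9 of them when each group was divided by its sum or the median of all genes was subtracted, beside 61.2% of all filtered genes. Of these, Ephb2 differed by as little as 1.04 against 1 FPKM. The median over the 9 genes was -1.22, against -0.20 for all genes, and with values under 3 fragments raised to that level the median and the count of 5 were unchanged. Smoc2 and Cd44 were past the limit in both genotypes in this way as well. With a pseudocount of 5 FPKM, chosen for this comparison after the values were seen, 0 genes in Tfeb flox/flox and 1 in Tfeb dIEC were past it. Sox9 differed from its Day 0 level by a log2 value of 0.85 among Tfeb flox/flox animals and -0.96 among Tfeb dIEC animals, or by 0.37 and -0.84 with each group divided by its sum. For Lrig1 these values were 0.40 and -2.10, or 0.00 and -2.06, so that its higher level in Tfeb flox/flox on Day 4 was no larger than the rise in the summed FPKM of that group.

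**Figure D4:**
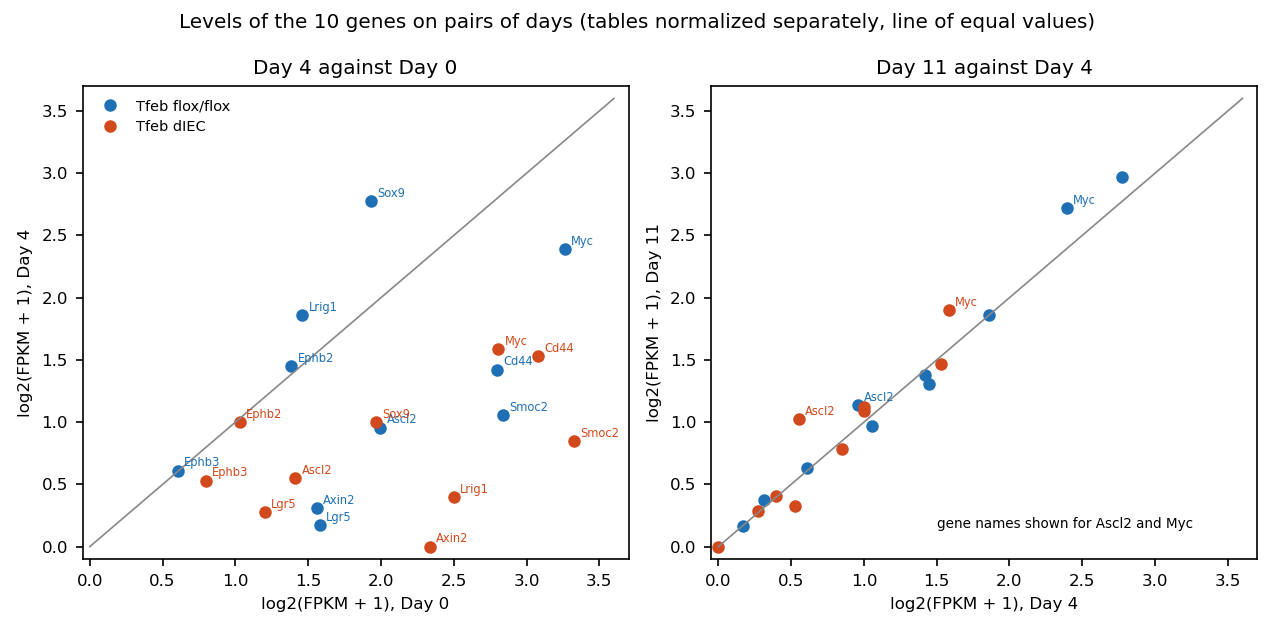
Levels of the 10 genes as log2(FPKM + 1) on Day 4 against Day 0 (left) and Day 11 against Day 4 (right) in both genotypes, with the line of equal values. Days 4 and 11 lie along the line, where Tfeb flox/flox has a median ratio of 1.14 and Tfeb dIEC one of 1.13, while Days 0 and 4 differ by median ratios of 2.63 over 10 genes and 3.55 over 9 (without Axin2, listed at 0), values under 3 fragments included, against 1.87 and 1.56 over all genes.

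On Day 0 the 10 genes summed to 34.3 FPKM in Tfeb flox/flox and 38.8 in Tfeb dIEC, and on Day 4 to 19.1 and 8.13. Their median percentile among the genes above 0 in a group went from 53.7 in Tfeb flox/flox and 60.7 in Tfeb dIEC on Day 0 to 42.2 and 34.2 on Day 4. The last of these leaves out Axin2, which was listed at 0 and has no percentile. The genes were thus of middling level before DSS and below the middle after it. Markers of other epithelial cells moved in the same comparison: the 7 goblet cell genes summed to 78505 FPKM in Tfeb flox/flox and 16345 in Tfeb dIEC on Day 4, against 22832 and 15041 on Day 0, with 4 of 7 at least 2-fold lower in Tfeb dIEC and 2 higher, beside 26.1% and 25.6% of all genes. On Day 4 most of that sum came from Zg16, at 34794 and 7393, and Tff3, at 28759 and 2166, while Muc2 stood at 645 and 1894. The 10 genes of differentiated colonocytes summed to 60424 and 39767, against 43288 and 27958 on Day 0, a sum in which Guca2a alone stood at 33249 and 9202 on Day 4. By count, 3 of these 10 were at least 2-fold higher in Tfeb dIEC on Day 4 and 3 lower, with a median log2 difference of 0.44. Immune markers summed to 5.02 and 9.32 FPKM on Day 4, against 9.17 and 3.06 on Day 0. Their part in the levels of the 10 genes was not tested.

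The course of Lgr5 over the 6 groups was most like that of Alg3, Mrpl19, Gm11189, Smt3h1-ps and Cnn3, with Pearson correlations of log2(FPKM + 1) from 0.994 to 0.997. Of 5575 genes that reached 5 FPKM in any group, 104 or 1.87% had a correlation of at least 0.95 with Lgr5. Among the other members, the correlation was 0.95 for Cd44, 0.93 for Smoc2, 0.87 for Ascl2 and Axin2, 0.72 for Myc, 0.46 for Ephb3, 0.36 for Lrig1, 0.04 for Ephb2 and -0.10 for Sox9. The 6 points are pooled values, those of Days 4 and 11 nearly repeat each other, and for Lgr5 these 4 rest on about 1 to 4 fragments. The ranking thus sets Day 0 against values near the detection limit and is a description.

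The other genes of the Wnt pathway were considered by role, in a list of 87. Of the 19 Wnt ligands and 4 R-spondins, 0 reached 1 FPKM in any group, and neither did any of the 11 secreted inhibitors, Notum among them at 0 throughout. The secreted signals of the pathway were thus hardly detected in these isolated cells. Wls, the carrier that takes Wnt ligands to the cell surface, was at 7.76 FPKM in Tfeb flox/flox and 30.1 in Tfeb dIEC on Day 0, and at 2.63 and 21.7 on Day 4. Rnf43, a ubiquitin ligase that removes Wnt receptors and is itself a Wnt target, was at 1.47 and 6.89 on Day 0 and at 0 and 0.773 on Day 4. Its relative Znrf3 stayed under 1 FPKM in all groups. Wls and Rnf43 were thus more than 2-fold higher in Tfeb dIEC on Day 0, and on Day 4 Rnf43 was under 1 FPKM in both genotypes. Of 4 filtered genes among the other Wnt targets of the list, 0 were higher on Day 0 and 2 lower, with a median of -0.68, beside 13.5% and 16.1% of all genes and a median of 0.06.

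Inside the cell, Ctnnb1 (β-catenin) was at 15.6 FPKM in Tfeb flox/flox and 15.4 in Tfeb dIEC on Day 0 and at 16 and 24.7 on Day 4. Csnk1a1, a kinase of the destruction complex, was at 57.1 and 67.9 on Day 0 and at 24.6 and 58.6 on Day 4. Apc, the scaffold of that complex, was at 0.59 and 1.42 on Day 0 and at 0.583 and 0.216 on Day 4. Tcf7l2, the main TCF factor of the intestinal epithelium, was lower in Tfeb dIEC on each day, at 51.2 and 17.7 on Day 0, 100 and 34.3 on Day 4, and 114 and 40.9 on Day 11. Its log2 differences of -1.48, -1.52 and -1.45 were close to those of Lrig1 and Sox9 on Day 4, but unlike them were already present on Day 0. Nkd1, another feedback target, was at 0 in all 6 groups. Of the 17 genes of the list that passed the filter on Day 4, 4 were at least 2-fold higher in Tfeb dIEC and 4 lower, shares close to those of all genes, with a median of 0.07.

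Of 15 other crypt base genes that passed the filter on Day 4, 8 were at least 2-fold higher in Tfeb dIEC, 2 were lower, and the median log2 difference was 1.06, beside 25.6% higher and 26.1% lower of all genes and a median of 0.06. Prom1, a membrane glycoprotein of crypt cells, was at 17.1 FPKM in Tfeb flox/flox and 128 in Tfeb dIEC on Day 4, and Cd24a, a surface protein of crypt base cells, at 26.2 and 99.8. Cdca7, a stem cell signature gene, was at 0.767 and 4.84 on Day 4, after 7.07 and 6.2 on Day 0. Reg4, a secreted lectin of deep crypt secretory cells, was lower, at 2640 and 1302. Aqp4, a water channel, was at 6.67 and 19.1. Olfm4, a stem cell marker mainly of the small intestine, was under 1 FPKM in all groups.

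Partners of the Myc and EphB proteins had median log2 differences on Day 4 of 0.74 for the Myc network and 1.01 for the ephrins and other Eph receptors. Here and in the lists that follow, the shares of all genes are again 25.6% higher and 26.1% lower, and with 20 or fewer filtered genes a list nothing is read from a departure. In the Myc network, 3 of 9 filtered genes were at least 2-fold higher in Tfeb dIEC and 0 lower. Of the genes named by level, Mlx was past the limit, at 40.3 and 86.2 FPKM and a log2 difference of 1.08. Mxd1, a Myc antagonist, lay about at the limit, at 28.5 and 57.9. Max, the obligate partner of Myc, was at 1.05 and 2.41, with a log2 difference of 0.74 that lay within 2-fold. Mxd4 was at 2.32 and 2.45. Among ephrins and other Eph receptors, 3 of 6 were higher and 0 lower, while the ligand Efnb1 was at 2.6 and 1.08. Efna1 was at 5.97 and 9.47, Epha1 at 0.754 and 1.74, and Ephb4 at 0.903 and 0.858, all within 2-fold on the log2(FPKM + 1) scale.

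Genes of the ErbB receptors that Lrig1 acts on were split. Of 7 filtered genes, 2 were at least 2-fold higher in Tfeb dIEC on Day 4 and 3 lower. Erbb3 was at 1.88 FPKM in Tfeb flox/flox and 6.84 in Tfeb dIEC, and Erbb2 at 8.3 and 10.8. The ligand Hbegf was at 9.03 and 3.1, and the ligand Areg at 9.94 and 9.71. Areg was thus alike in both genotypes, and above its Day 0 values of 2.9 and 2.32.

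Genes linked to repair and to proliferation completed the lists. Of 3 filtered repair-associated genes, 1 was higher on Day 4 and 1 lower. Ly6a, a marker of regenerating epithelium, went from 69.6 FPKM in Tfeb flox/flox and 25.8 in Tfeb dIEC on Day 0 to 2033 and 743 on Day 4. Anxa1 was at 21.9 and 76.3, and Yap1 at 0.552 and 0.624. Of 20 filtered proliferation genes, 4 were higher on Day 4 and 1 lower, and their median log2 difference between Day 4 and Day 0 stood at -0.99 for Tfeb flox/flox and at -1.06 for Tfeb dIEC, near the medians of the 10 stem cell and Wnt target genes. Mcm6, a subunit of the replicative helicase, was at 1.62 and 8.97 on Day 4, and Birc5, an inhibitor of apoptosis needed for mitosis, at 10.4 and 4.26. Ccna2, at 4.68 and 5.71, and Cdk1, at 4.89 and 4.62, which drive cell division, were nearly equal in the genotypes, and Mki67 was at 0.218 and 0.389. With each genotype divided by the sum of its values, all these Day 4 differences shift upward together with the median of all genes.

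**Figure D5:**
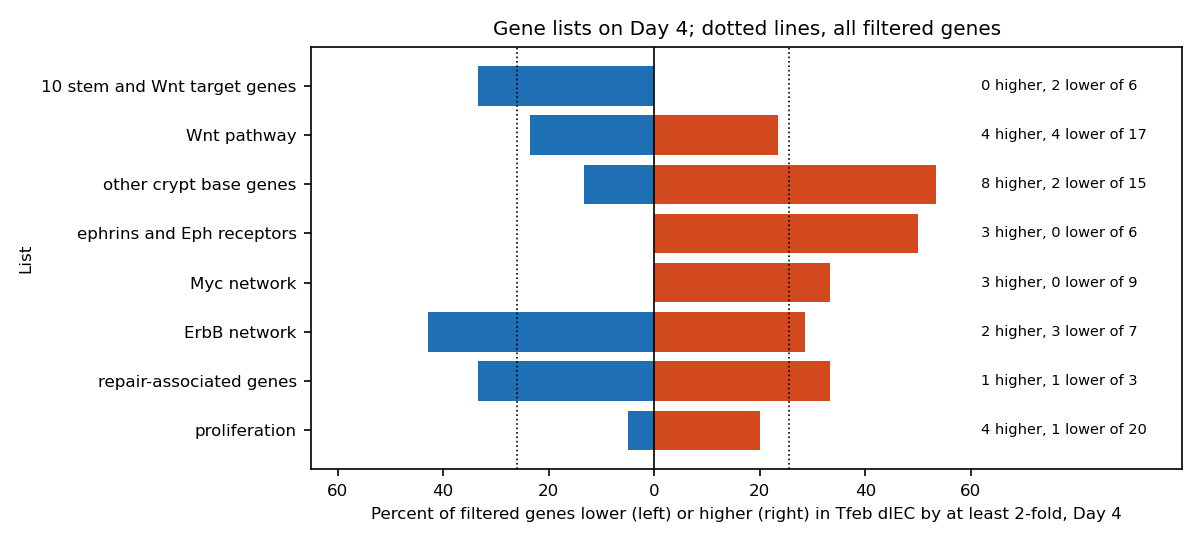
Percent of filtered genes of each list that were at least 2-fold lower (left) or higher (right) in Tfeb dIEC on Day 4, with the numbers of genes at the right and dotted lines for all genes, at 26.1% lower and 25.6% higher. Of the 10 genes, 6 passed the filter and 2 were lower, and of the other crypt base genes 8 of 15 were higher.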

How the data were processed

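The authors isolated colonic epithelial cells with EDTA, prepared SmartSeq2 libraries, sequenced them on a MiSeq and mapped the read pairs to mm10. The submitters' processing notes name TopHat2 2.0.14 and Cuffdiff 2.1.1. Each of the 3 deposited tables compares the genotypes of 1 day and holds, for 47632 genes, 1 FPKM per genotype, which Cuffdiff made from 2 animals and scaled within that day. The tables also hold the authors' fold change, test statistic, p-value, q-value and call, none of which was used. Whether the libraries kept strand is not given in the sources used here, so reads of genes and antisense genes cannot be told apart.

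Log2 differences used a pseudocount of 1 FPKM. Counts are over genes that reached 1 FPKM in one or both of the groups compared, with a limit of 2-fold on that scale, and no p-value was computed. The tables were joined by gene identifier. Transcript lengths are those of basic transcripts of GENCODE M21, found for 47218 genes. The value of 1 fragment was estimated from single-transcript genes over 1000 nt, after 250 bases were taken off the length, an offset chosen after seeing the data since it gave the sharpest steps. The lower estimate of fragments used the median transcript length and the upper the longest. These are estimates, and no count test was run on them. For values of 0, the level of 3 fragments was given.

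All 10 genes are named. From each other list, the up to 4 genes with the highest mean FPKM over the 6 groups are named, and a few set genes whatever their values (Rnf43, Znrf3, Ctnnb1, Tcf7l2, Apc, Nkd1, Notum, Olfm4, Cdca7, Mki67 and Tfeb). The genes and lists were chosen with earlier results of these data known. Cell type markers were fixed lists, of which Itgam was left out because its symbol has more than 1 row. Alternatives were pseudocounts of 0.1 and 5, division by the sum of each group, centring on the median of all genes or of 10 groups by transcript length, other filters and a limit of 4-fold. The code was tested on simulated data. Python 3.11.15 with numpy 2.4.6, pandas 2.3.3 and matplotlib 3.10.9 was used.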

Additional observations from a re-analysis of the deposited data

Results flagged for a closer look

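The genotype difference of Lrig1 had opposite signs on Day 0 and Day 4, past 2-fold on both days. It was at 1.75 FPKM in Tfeb flox/flox and 4.66 in Tfeb dIEC on Day 0, and at 2.63 and 0.315 on Day 4, so that the log2 difference on Day 4 minus that on Day 0 was -2.51. This value was -1.04 with a pseudocount of 5, -4.08 with one of 0.1 and -2.06 with each group divided by its sum. The Day 0 difference alone fell under 2-fold with either centring and with a pseudocount of 5. The Day 4 value in Tfeb dIEC rested on about 4 to 6 fragments, each value pools 2 animals, and neither the change nor its cause was tested.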

How the results depend on the processing

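Since each group has 1 pooled value, no spread between animals could serve as a yardstick here, and a log2 value was taken as moved when it differed by 1.5-fold or more. Among the differences of single genes over days and alternatives, 125 of 150 moved less and 25 moved more. A change of sign was counted only for differences past 2-fold, those of Lrig1 on each day and of Sox9 on Days 4 and 11, and 0 were found. A pseudocount cannot change a sign. Smaller differences did change sign, such as that of Smoc2 on Day 4, which ranged from -0.84 to 0.19, and that of Ephb2 on Day 11, from -0.63 to 0.24. The single gene higher in Tfeb dIEC on Day 0 became 2 with a pseudocount of 0.1, and 0 with a pseudocount of 5, with either centring, with a filter at 5 FPKM and with a limit of 4-fold. The 2 lower genes became 0 with a pseudocount of 5 and with a limit of 4-fold, and 1 with a filter at 5 FPKM, on both Days 4 and 11, and 3 with a pseudocount of 0.1 on both days and with centring by transcript length on Day 11. That filter left Sox9 alone on Day 4, at -1.77, and 2 genes on Day 11, with a median of -1.33. For the change from Day 0 to Day 4, alternatives chosen after seeing the data gave 0 lower genes in Tfeb flox/flox with a pseudocount of 5 and 2 with values raised to the level of 3 fragments, and 8 and 1 in Tfeb dIEC with pseudocounts of 0.1 and 5. The pseudocounts act by construction, since most of these genes are under 5 FPKM. No paired analysis was possible because the tables hold 1 value per genotype and day, and for the same reason no animal could be left out in turn. Low depth limits Lgr5, Axin2 and Ascl2 on Days 4 and 11, which lie around or under 3 fragments, and also Ephb3, Smoc2 and, in Tfeb dIEC, Lrig1.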
